A study of Mus musculus with 18 samples.

Results

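The genes described here are 36 mouse genes of protein folding and quality control in the endoplasmic reticulum (ER) and of the unfolded protein response, of 24421 gene symbols in the count tables. They were chosen by their known function, with earlier results of these data in view, and not by a threshold on any value. They comprise 11 chaperones of the Hsp70 and Hsp90 type with their J proteins and cofactors, 3 lectin chaperones or glycoprotein checkpoints, 7 disulfide and prolyl isomerases, 6 genes of ER-associated degradation, 2 translocon subunits, 3 stress sensors with Xbp1, and Atf4, Ddit3 and Trib3. The first 21 are called the folding genes below, and the last 3 the Atf4-Ddit3 arm. All 36 were in the files and all 36 passed the filter on low counts that left 10550 genes for testing.

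The libraries were bulk RNA-seq of macrophages sorted from the synovium, the tissue that lines the joint, of wild-type C57BL/6 mice. LYVE1+CX3CR1+ macrophages were gated as negative for MHCII and Ly6C, and the other sorted populations were MHCII+CD11c- and MHCII+CD11c+ cells. Each subset came from mice left without treatment or from mice killed 8 h after an intravenous injection of immune complexes (ICs) made of ovalbumin and rabbit polyclonal antibody against it, with 3 libraries in each of the 6 groups. Each library held cells pooled from 3 mice, so the spread between libraries is one between pools. The control mice received no injection, so the complex, its parts and the injection cannot be told apart, and the labels do not say whether same-numbered libraries of the 3 subsets were sorted from the same mice.

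The ER folds and modifies the proteins that a cell secretes or places on its surface. When unfolded proteins build up there, the membrane sensors Ern1 (IRE1), Atf6 and Eif2ak3 (PERK) start the unfolded protein response. Spliced Xbp1 and cleaved Atf6 raise the transcription of chaperones, oxidoreductases and degradation genes, whereas PERK slows translation and favours the translation of Atf4, which drives Ddit3 (CHOP) and Trib3. Macrophages carry a large ER load because they secrete cytokines, complement and enzymes and turn over surface receptors. Activation of Ern1, Atf6 and Eif2ak3 occurs on the proteins and, for Xbp1, by splicing, none of which a gene-level count table records.

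The libraries held between 245903 and 2172358 counts, with a median of 1526179.5. The group ranges were 1509070 to 1801039 in untreated and 1796782 to 2047260 in IC-treated LYVE1+CX3CR1+ macrophages, 837439 to 985186 and 245903 to 973951 in MHCII+CD11c- macrophages, and 1589668 to 2172358 and 671244 to 1614423 in MHCII+CD11c+ macrophages. Values are given as CPM, the counts of a gene divided by the library total in units of 1e+06 counts and scaled by TMM factors, in the order of library numbers 1, 2 and 3. The sort markers followed the labels without treatment: Lyve1 was 2171 to 2563 CPM in untreated LYVE1+CX3CR1+ macrophages against 329 to 439 in MHCII+CD11c+ macrophages, where Itgax (CD11c) was 239.95 to 304. With IC, Lyve1 was 3172 to 3555 CPM in LYVE1+CX3CR1+, 516 to 2290 in MHCII+CD11c- and 1001 to 1232 in MHCII+CD11c+ macrophages. Of the MHCII+CD11c- libraries with IC, only the highest reached into the range of untreated LYVE1+CX3CR1+ macrophages. IC replicate 2 of the MHCII+CD11c- macrophages, the smallest library, stood apart, with a summed level of 8 macrophage markers of 5588 CPM against 8955 or more in each other library. Untreated replicate 1 of the LYVE1+CX3CR1+ macrophages carried 645 CPM of 8 fibroblast markers, led by Prg4. The counts of members called are also given without these 2 libraries, with each call lost, a choice made after the data were seen. In bulk RNA, a smaller share of cells of a type and less RNA per cell cannot be told apart.

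Many of these genes are known targets of Atf6 and Xbp1 through a shared promoter element, so the start regions of the members were read from the RefSeq promoter table for GRCm38.p6, which holds 250 bases before and 50 after each start. The table matched 30 of the 36 genes with 33 promoters. Hyou1, Manf, Sil1, Derl1, Sec61a1 and Atf6 had no entry. The ER stress response element (ERSE: CCAAT, any 9 bases, then CCACG, searched on both strands) lay in 8 of 33 member promoters (24.2%), against 39 of all 32851 promoters (0.119%). Matches in genes with and without a rise are counted further below. The promoters of Hspa5, Hsp90b1 and Pdia6 are printed up to the start. These 3 were picked among genes that both rose on average and held ERSE, so they do not link the element to the rise. There are 2 matches in the Hsp90b1 promoter and 1 in each of the others. Each is written 5′ to 3′ on the strand of its gene, with ERSE matches in capitals, at chr2:34771840-34772089 on the plus strand, chr10:86705445-86705694 on the minus strand and chr12:17266339-17266588 on the plus strand.
Hspa5: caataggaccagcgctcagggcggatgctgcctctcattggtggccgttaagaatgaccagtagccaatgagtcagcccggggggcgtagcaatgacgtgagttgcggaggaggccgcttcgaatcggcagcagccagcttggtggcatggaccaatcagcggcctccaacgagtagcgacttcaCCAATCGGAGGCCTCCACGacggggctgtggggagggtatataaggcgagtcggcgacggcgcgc
Hsp90b1: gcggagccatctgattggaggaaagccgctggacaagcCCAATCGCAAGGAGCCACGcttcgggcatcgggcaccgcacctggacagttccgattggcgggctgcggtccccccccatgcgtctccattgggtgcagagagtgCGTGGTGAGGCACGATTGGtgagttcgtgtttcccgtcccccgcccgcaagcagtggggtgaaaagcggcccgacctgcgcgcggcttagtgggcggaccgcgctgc
Pdia6: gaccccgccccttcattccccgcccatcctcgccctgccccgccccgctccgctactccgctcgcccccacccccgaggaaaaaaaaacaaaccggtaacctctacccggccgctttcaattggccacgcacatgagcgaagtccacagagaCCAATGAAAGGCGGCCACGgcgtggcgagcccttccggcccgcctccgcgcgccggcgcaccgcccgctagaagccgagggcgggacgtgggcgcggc
The start of transcription follows the last of the 250 bases of each. The Hspa5 match spans bases 65 to 47 before the start, the Hsp90b1 matches lie at 212 to 194 and, on the other strand, at 107 to 89, and that of Pdia6 lies at 98 to 80.

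The other ERSE matches were in Dnajc3, Creld2, Calr, Canx and Syvn1. A shorter form, ERSE-II (ATTGG, any 1 base, then CCACG), which shares the CCACG block with ERSE, lay in the promoters of Dnajb11 and Herpud1, 2 of 33 (6.06%) against 12 of 32851 (0.0365%). For comparison with the promoters above, 60 bases around each match are shown in the orientation of the gene, capitals again marking the match, which reads as its reverse complement (CGTGG first, ATTGG last) in Calr and Creld2.
Dnajc3: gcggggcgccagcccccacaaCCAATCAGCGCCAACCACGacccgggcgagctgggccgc
Creld2: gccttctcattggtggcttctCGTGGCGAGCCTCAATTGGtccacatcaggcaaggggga
Calr: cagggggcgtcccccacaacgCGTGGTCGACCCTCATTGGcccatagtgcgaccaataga
Canx: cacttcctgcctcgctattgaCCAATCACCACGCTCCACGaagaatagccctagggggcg
Syvn1: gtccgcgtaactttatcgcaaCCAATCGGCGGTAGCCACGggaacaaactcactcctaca
Dnajb11: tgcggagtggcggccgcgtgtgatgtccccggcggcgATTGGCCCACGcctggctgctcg
Herpud1: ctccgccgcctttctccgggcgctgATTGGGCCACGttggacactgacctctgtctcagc
These windows lie at chr14:118937806-118937865, chr15:88819499-88819558, chr8:84847055-84847114 on the minus strand, chr11:50325780-50325839 on the minus strand, chr19:6046511-6046570, chr16:22857815-22857874 and chr8:94386352-94386411, the others being on the plus strand. The element is known from promoters of such chaperone genes, so its presence among them is no finding of these data. Of the remaining motifs, the unfolded protein response element core TGACGTGG, which contains the reverse complement of CCACG, lay in the Txndc5 promoter, 1 of 33 (3.03%) against 222 of 32851 (0.676%). The C/EBP-ATF element TGATGNAA, bound by Atf4 with C/EBP partners, lay in 3 promoters, those of Txndc5, Herpud1 and Trib3 (9.09%, against 3.97% of all).

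**Figure D1:**
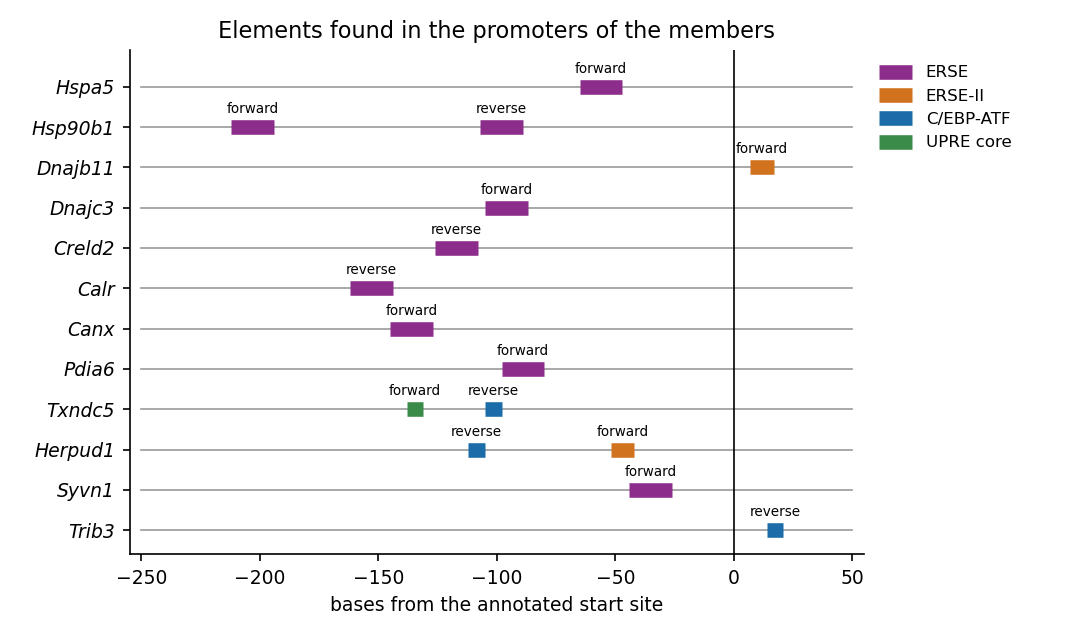
Position of each motif match (coloured blocks, marked forward or reverse) in the promoters of the 12 members that held one, in bases from the annotated start (x axis, vertical line at the start). The matches of ERSE lie between 212 and 26 bases before the start, and the ERSE-II match of Dnajb11 begins 7 bases after it.

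In untreated LYVE1+CX3CR1+ macrophages, the order of members per kilobase of exon was led by lectin chaperones and isomerases. Calr, the lumenal lectin chaperone and calcium store, stood at 341 ± 22.8 CPM per kb (SD, n = 3) above all other members, and its range did not overlap that of the next gene. P4hb, Pdia3, Canx, Hspa5 and Hsp90b1 followed at 202, 172, 164, 142 and 136 CPM per kb, with each neighbour's range overlapping the next. Atf4 was at 83.7 and Xbp1 at 52.2 CPM per kb. The sensors were lower, with Eif2ak3 at 10.1, Atf6 at 7.89 and Ern1 at 5.68 CPM per kb, and Derl2 and Trib3 closed the order at 2.70 and 1.94. Calr led the order in all 6 groups, and Hspa5 ranked 5 of 36 in untreated and 2 in IC-treated LYVE1+CX3CR1+ macrophages, where its level was 289 CPM per kb and overlapped that of P4hb at 271.

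The comparison of IC-treated with untreated macrophages asks which transcripts differ 8 h after the complexes enter the circulation. Hspa5 and Pdia6 rose in all 3 subsets and Hyou1 in 2 of them, and none of the 36 genes was called lower in any subset. Tested in each subset on its own, 3 members were called higher in LYVE1+CX3CR1+ macrophages (against 0.246% of all genes tested), 3 in MHCII+CD11c- (against 0.55%) and 2 in MHCII+CD11c+ macrophages (against 0.483%). The shares of all genes called lower were 0.218%, 0.512% and 0.19%, with 0 members among them. A call needs a p under 0.05 from the quasi-likelihood test of edgeR, adjusted over all genes tested by Benjamini and Hochberg.

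Averaged over the 3 subsets, 12 members were called higher (against 3.12% of all genes) and 0 lower (against 3.09%), and all 12 were folding genes. At an unadjusted p under 0.05, 17 members passed in the averaged comparison, and 16, 12 and 10 in the LYVE1+CX3CR1+, MHCII+CD11c- and MHCII+CD11c+ macrophages, against 19%, 8.71%, 14.6% and 9.48% of all genes in the same order. The averaged comparison shares its libraries with the 3 subset comparisons and treats 9 libraries against 9 as independent. When same-numbered libraries of a treatment were first averaged into 3 against 3 and tested with limma, a setting added after the data were seen, 7 members stayed called, namely Hspa5, Hsp90b1, Hyou1, Dnajb11, Calr, Pdia4 and Pdia6, against 1.06% of all genes called higher. The median log2 fold change of the 21 folding genes was 0.52, 0.44 and 0.34 in the 3 subsets and 0.47 on average, against -0.015, -0.013, -0.0072 and -0.015 over all genes tested.

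**Figure D2:**
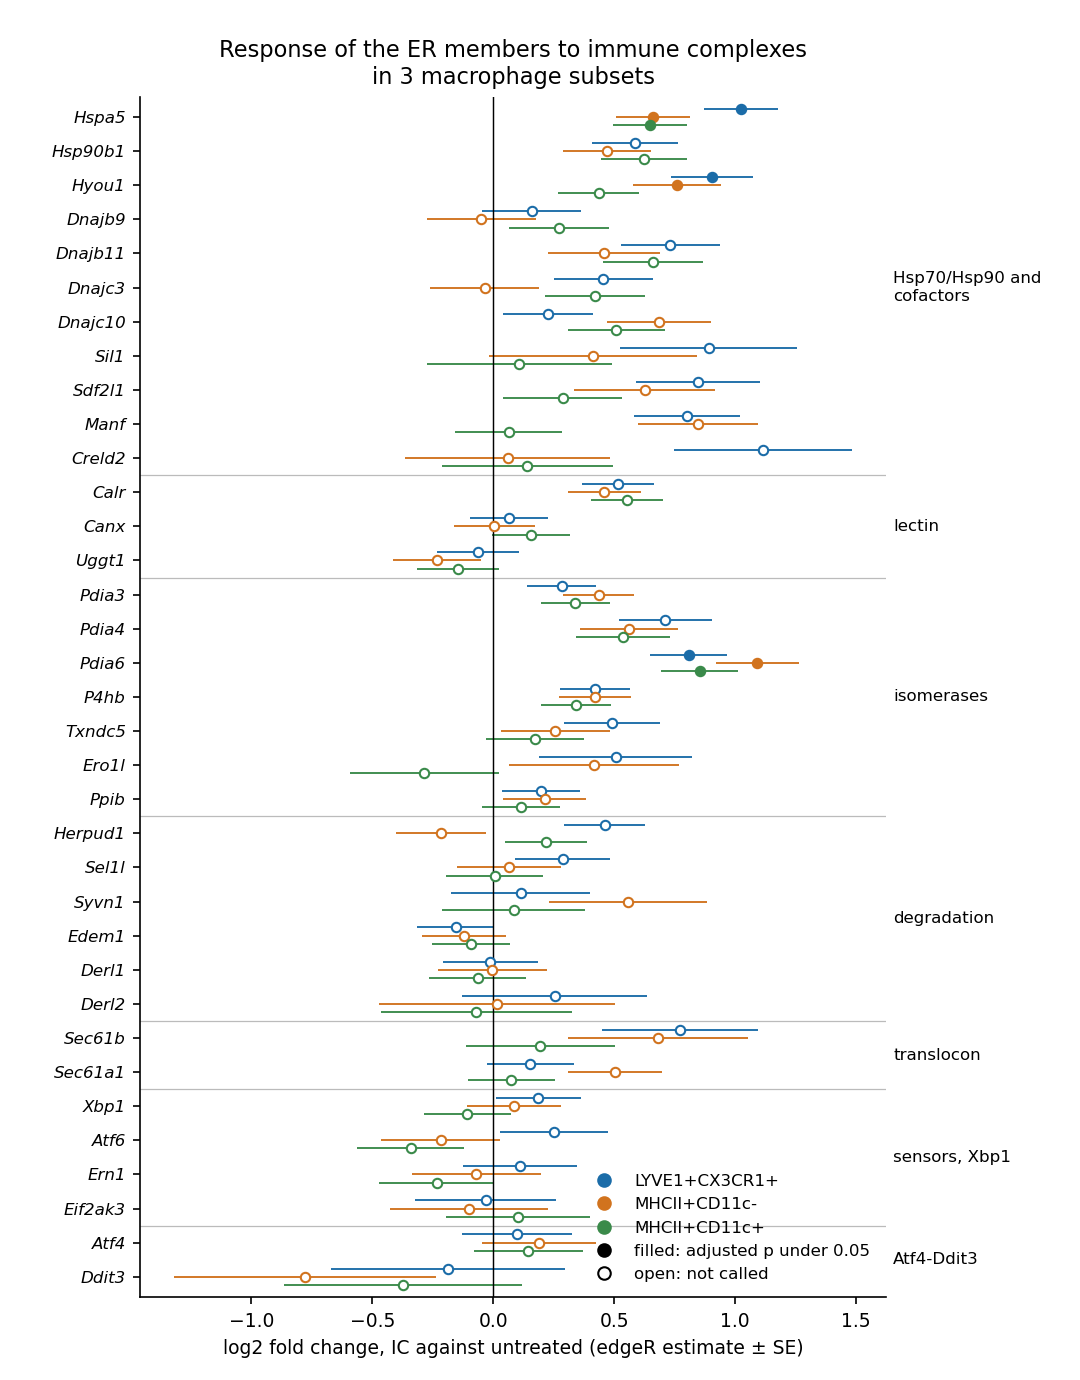
Log2 fold change with IC (x axis) of the members by role, as edgeR estimates (points) with their SE (bars) in each of the 3 subsets (colours); Trib3 is left out because its counts were too low for a fold. Filled points passed an adjusted p of 0.05, namely 3 genes in the LYVE1+CX3CR1+ subset, 3 in the MHCII+CD11c- subset and 2 in the MHCII+CD11c+ subset, and most folding genes lie right of 0.

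Hspa5 (BiP), the Hsp70 of the ER lumen that also holds the sensors inactive, had the largest change among members in LYVE1+CX3CR1+ macrophages that passed the test. Its levels there were 563, 547 and 694 CPM in untreated and 1455, 1159 and 1059 CPM in IC-treated libraries. The MHCII+CD11c- libraries held 866, 751 and 727 against 1229, 1167 and 1303 CPM. In MHCII+CD11c+ macrophages they were 978, 776 and 885 against 1504, 1313 and 1321 CPM. Every IC library lay above every untreated library of its subset. The log2 fold changes were 1.02 ± 0.15 (± SE; adjusted p = 0.000984), 0.66 ± 0.15 (adjusted p = 0.0316) and 0.65 ± 0.15 (adjusted p = 0.0442), which is 2.03-, 1.58- and 1.57-fold. The call in LYVE1+CX3CR1+ macrophages held without any 1 of the 18 libraries. That in MHCII+CD11c- macrophages was lost without untreated replicate 2 or 3 or IC replicate 1 or 3, with adjusted p = 0.119, 0.114, 0.0815 and 0.0725. In MHCII+CD11c+ macrophages it was lost without untreated replicate 2 or 3 or without IC replicate 1, 2 or 3, with adjusted p = 0.264, 0.159, 0.185, 0.118 and 0.136. It was also lost, at adjusted p = 0.0526 to 0.0693, without any 1 untreated library of the other subsets, IC replicate 1 of MHCII+CD11c- or IC replicate 2 of LYVE1+CX3CR1+ macrophages, which share the estimate of the spread.

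Pdia6, a protein disulfide isomerase that also acts on Ern1, was the other gene called in every subset. It was at 129, 142 and 119.5 CPM in untreated and 245, 221 and 217 CPM in IC-treated LYVE1+CX3CR1+ macrophages. The libraries of the MHCII+CD11c- subset held 131, 133 and 129.7 against 316, 249 and 273 CPM. In MHCII+CD11c+ macrophages they were 237, 165 and 183 against 358, 367 and 336 CPM. The groups did not overlap in any subset. The log2 fold changes were 0.81 ± 0.16 (adjusted p = 0.0158), 1.09 ± 0.17 (adjusted p = 0.00125) and 0.85 ± 0.16 (adjusted p = 0.00937). The call in MHCII+CD11c- macrophages held without any 1 of the 18 libraries. In LYVE1+CX3CR1+ macrophages it was lost without untreated replicate 1, 2 or 3 or IC replicate 1 or 2, at adjusted p = 0.1, 0.0519, 0.127, 0.117 and 0.0602. The MHCII+CD11c+ call was lost without untreated replicate 2 or 3, at adjusted p = 0.0989 and 0.0779.

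Hyou1 (Grp170), a large Hsp70 relative that exchanges nucleotide on Hspa5, was called in LYVE1+CX3CR1+ and MHCII+CD11c- macrophages. Its levels were 109, 108 and 122 CPM in untreated and 243, 225 and 168 CPM in IC-treated LYVE1+CX3CR1+ macrophages. Levels of 152, 137 and 121 against 261, 207 and 223 CPM were found in MHCII+CD11c- macrophages. The MHCII+CD11c+ levels were 218, 208 and 189 against 299, 292 and 241 CPM. IC libraries were above untreated libraries in all 3 subsets, although the last subset missed the threshold. The log2 fold changes were 0.90 ± 0.17 (adjusted p = 0.00992), 0.76 ± 0.18 (adjusted p = 0.0367) and 0.44 ± 0.17 (adjusted p = 0.339). The first call was lost without untreated replicate 1 or 2 or IC replicate 1 or 2 of its subset, at adjusted p = 0.0777, 0.0747, 0.102 and 0.0722. The second was lost without untreated replicate 2 or 3 or IC replicate 1 or 3 of its subset, at adjusted p = 0.103, 0.128, 0.123 and 0.0609. It was also lost, at adjusted p = 0.0508 to 0.0586, without any 1 untreated library of LYVE1+CX3CR1+, untreated replicate 2 or 3 of MHCII+CD11c+, or IC replicate 2 of either subset.

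**Figure D3:**
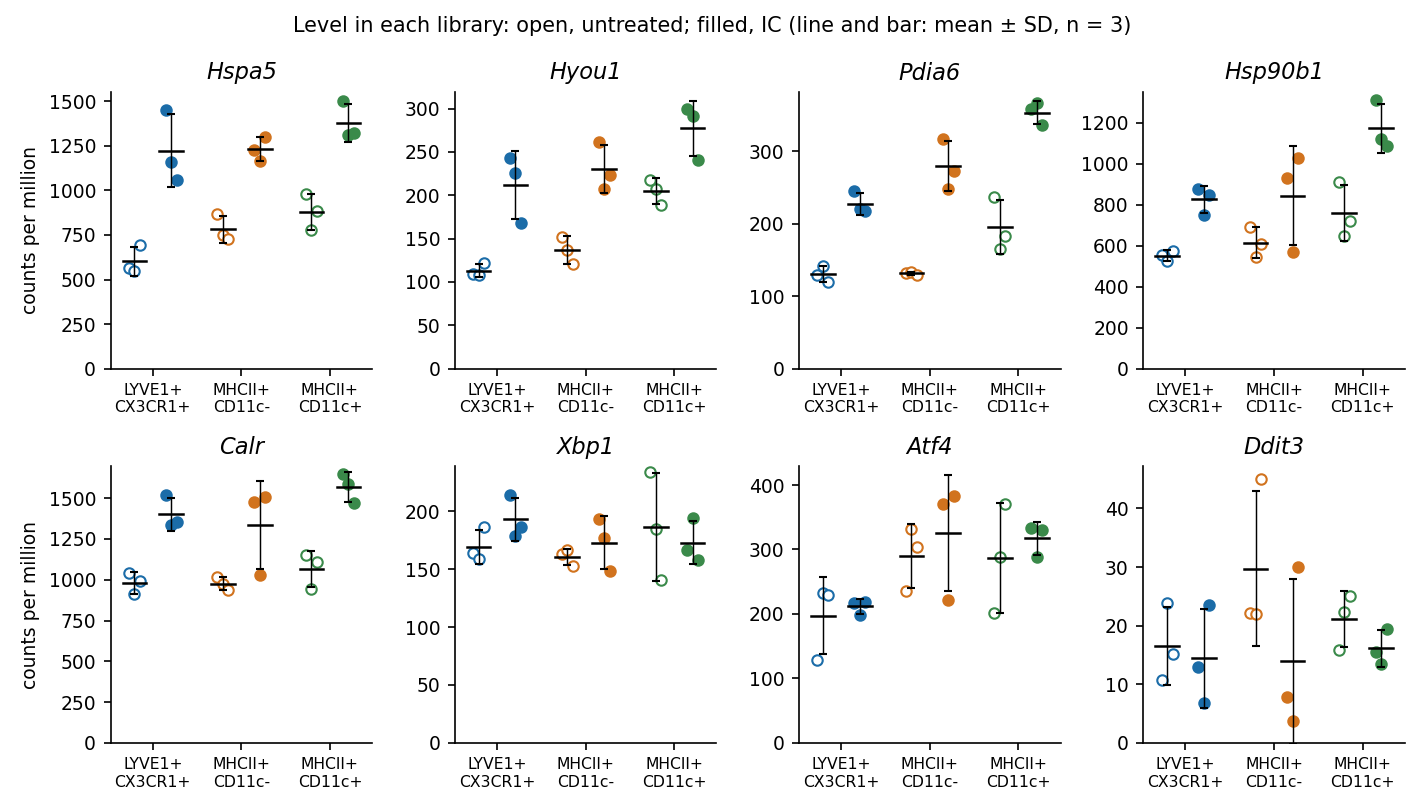
TMM-scaled CPM (y axis) of 8 members in each library by subset (x axis), with open points for untreated and filled points for IC libraries, lines for means and bars for the SD (n = 3). For Hspa5, Hyou1, Pdia6 and Calr the IC libraries lie above the untreated libraries in all 3 subsets, whereas those of Xbp1, Atf4 and Ddit3 overlap.

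Of the 11 Hsp70 and Hsp90 type chaperones and cofactors, 7 rose on average. Hsp90b1 (Grp94), the Hsp90 of the ER that folds Toll-like receptors and integrins, was at 552, 522 and 575 CPM in untreated and 875, 751 and 848 CPM in IC-treated LYVE1+CX3CR1+ macrophages. It was at 691, 543 and 609 against 931, 569 and 1027 CPM in MHCII+CD11c- macrophages. It was at 912, 646 and 722 against 1309.7, 1119 and 1087 CPM in MHCII+CD11c+ macrophages. The groups overlapped in MHCII+CD11c- macrophages alone, through IC replicate 2. The averaged log2 fold change of Hsp90b1 was 0.56 ± 0.10 (adjusted p = 0.00128), and edgeR did not call it in a subset on its own. The Wald test of DESeq2 on all 18 libraries called it in LYVE1+CX3CR1+ and MHCII+CD11c+ macrophages (adjusted p = 0.0242 and 0.0166). Without IC replicate 2 of MHCII+CD11c- macrophages, edgeR called it in all 3 subsets, with adjusted p = 0.0225, 0.0163 and 0.0123.

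Manf, a secreted and lumenal cofactor of Hspa5, was called on average and, by edgeR, in no subset on its own. The Wald test of DESeq2 called it in LYVE1+CX3CR1+ and MHCII+CD11c- macrophages (adjusted p = 0.0284 and 0.0425). Levels were 66.7, 66.4 and 89.9 CPM in untreated and 164, 127 and 100.4 CPM in IC-treated LYVE1+CX3CR1+ macrophages. They were 60.5, 53.8 and 96.03 against 123, 158 and 109 CPM in MHCII+CD11c- macrophages. They were 108, 90.7 and 111 against 111, 107 and 107 CPM in MHCII+CD11c+ macrophages. The groups were apart in the first pair of subsets and overlapped in the last. The log2 fold changes were 0.80 ± 0.22 (adjusted p = 0.137), 0.85 ± 0.25 (adjusted p = 0.0909) and 0.063 ± 0.22 (adjusted p = 0.977), and the average was 0.57 ± 0.13 (adjusted p = 0.00886).

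The other chaperones that rose on average were Dnajb11 (ERdj3), a J protein that brings unfolded clients to Hspa5, Dnajc10 (ERdj5), a J protein with reductase activity, and Sdf2l1, a partner of Dnajb11. Their averaged log2 fold changes were 0.62 ± 0.12 (adjusted p = 0.00298), 0.47 ± 0.12 (adjusted p = 0.0132) and 0.59 ± 0.15 (adjusted p = 0.0195). Sdf2l1 levels were 34.4, 43.9 and 48.5 CPM in untreated and 84.6, 74.9 and 69.6 CPM in IC-treated LYVE1+CX3CR1+ macrophages, which did not overlap. Without the pair of libraries that stood apart, its averaged adjusted p was 0.0607, while the other 11 genes called on average had log2 fold changes of 0.39 (P4hb) to 0.93 (Pdia6) and kept their calls. Hspa5 and Hyou1 averaged 0.78 ± 0.088 (adjusted p = 4.15e-06) and 0.70 ± 0.10 (adjusted p = 8.28e-05).

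Dnajb9 (ERdj4), a J protein that represses Ern1 and is a known Xbp1 target, was among the 4 that were not called. Its levels in LYVE1+CX3CR1+ macrophages were 82.2, 73.3 and 90.5 CPM untreated and 101, 84.9 and 89.3 CPM with IC, and its averaged log2 fold change was 0.13 ± 0.12 (adjusted p = 0.645). Dnajc3 (p58IPK), a co-chaperone that restrains PERK, had an averaged log2 fold change of 0.28 ± 0.12 (adjusted p = 0.202). Sil1, a nucleotide exchange factor of Hspa5, and Creld2, a small disulfide protein, had averages of 0.47 ± 0.23 and 0.44 ± 0.22 (adjusted p = 0.262 and 0.29), with every IC library of LYVE1+CX3CR1+ macrophages above every untreated one for each of the pair. Creld2 there went from 20.2, 14.4 and 24.8 to 49.6, 47.4 and 32.7 CPM, a log2 fold change of 1.11 ± 0.37 that did not pass the test (adjusted p = 0.263).

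Among the lectin chaperones, Calr rose on average, and Canx and Uggt1 were not called. Calr was at 1039.8, 910.2 and 992 CPM in untreated and 1519, 1336 and 1353 CPM in IC-treated LYVE1+CX3CR1+ macrophages. It was at 1017, 974 and 937 against 1477, 1028 and 1506 CPM in the MHCII+CD11c- subset. The MHCII+CD11c+ levels were 1153, 941 and 1108 against 1647, 1587 and 1468 CPM. The groups did not overlap in any subset, and the averaged log2 fold change was 0.51 ± 0.086 (adjusted p = 0.00046). By edgeR, Calr was not called in a subset on its own. The Wald test of DESeq2 on all 18 libraries called it in all 3 (adjusted p = 0.00161, 0.00869 and 0.000659). Without IC replicate 2 of the MHCII+CD11c- macrophages, edgeR also called it in all 3, with adjusted p = 0.013, 0.00818 and 0.00621. Canx, the membrane-bound lectin chaperone of the same cycle, was at 803, 701 and 802 CPM in untreated and 799.6, 729.6 and 879.7 CPM in IC-treated LYVE1+CX3CR1+ macrophages, which overlapped. The averaged log2 fold change of Canx was 0.075 ± 0.094 with a 95% interval of -0.12 to 0.27 (adjusted p = 0.744). Uggt1, which tags misfolded glycoproteins for another round, averaged -0.15 ± 0.10 (adjusted p = 0.467), and its IC libraries in MHCII+CD11c- macrophages, at 207, 199.6 and 227 CPM, all lay below the untreated 248, 241 and 262 CPM.

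Of the 7 isomerases, 4 rose on average. Besides Pdia6 at 0.92 ± 0.094 (adjusted p = 1.33e-06), these were Pdia4 at 0.60 ± 0.11 (adjusted p = 0.00158), P4hb at 0.39 ± 0.084 (adjusted p = 0.00492) and Pdia3 at 0.35 ± 0.083 (adjusted p = 0.00995). Pdia4 (ERp72) is a disulfide isomerase, P4hb is the founding disulfide isomerase and a subunit of prolyl hydroxylase, and Pdia3 (ERp57) works with Calr and Canx on glycoproteins. Pdia4 levels were 205, 188 and 181 CPM in untreated and 358, 295 and 286 CPM in IC-treated LYVE1+CX3CR1+ macrophages, which did not overlap. Pdia3 groups did not overlap in any subset, and its levels in MHCII+CD11c+ macrophages were 688, 592 and 630.3 against 802, 810.1 and 804 CPM. The 3 isomerases without a call were Txndc5, an isomerase with thioredoxin domains, at 0.31 ± 0.12, Ppib (cyclophilin B), a prolyl isomerase, at 0.17 ± 0.095, and Ero1l, the oxidase that recharges disulfide isomerases, at 0.21 ± 0.19 on average (adjusted p = 0.147, 0.331 and 0.607). Exons of Snx22 on the opposite strand overlap 25.0% of the exon bases of Ppib, and the strand setting of the counting is not given, so its counts may hold reads of both genes.

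18 of the 36 members had every IC library above every untreated one in LYVE1+CX3CR1+ macrophages, against 9.6% of all genes tested. The count was 10 in MHCII+CD11c- macrophages, against 5.68%, and 10 in MHCII+CD11c+ macrophages, against 8.51%. Of these, 16, 9 and 9 were folding genes. As a share of all counts, the 21 folding genes went from 0.562 ± 0.0186% (SD, n = 3) to 0.783 ± 0.0529% in LYVE1+CX3CR1+ macrophages, from 0.578 ± 0.039% to 0.809 ± 0.0725% in MHCII+CD11c- and from 0.65 ± 0.0737% to 0.9 ± 0.0469% in MHCII+CD11c+ macrophages. The lowest IC library was above the highest untreated library in each subset.

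**Figure D4:**
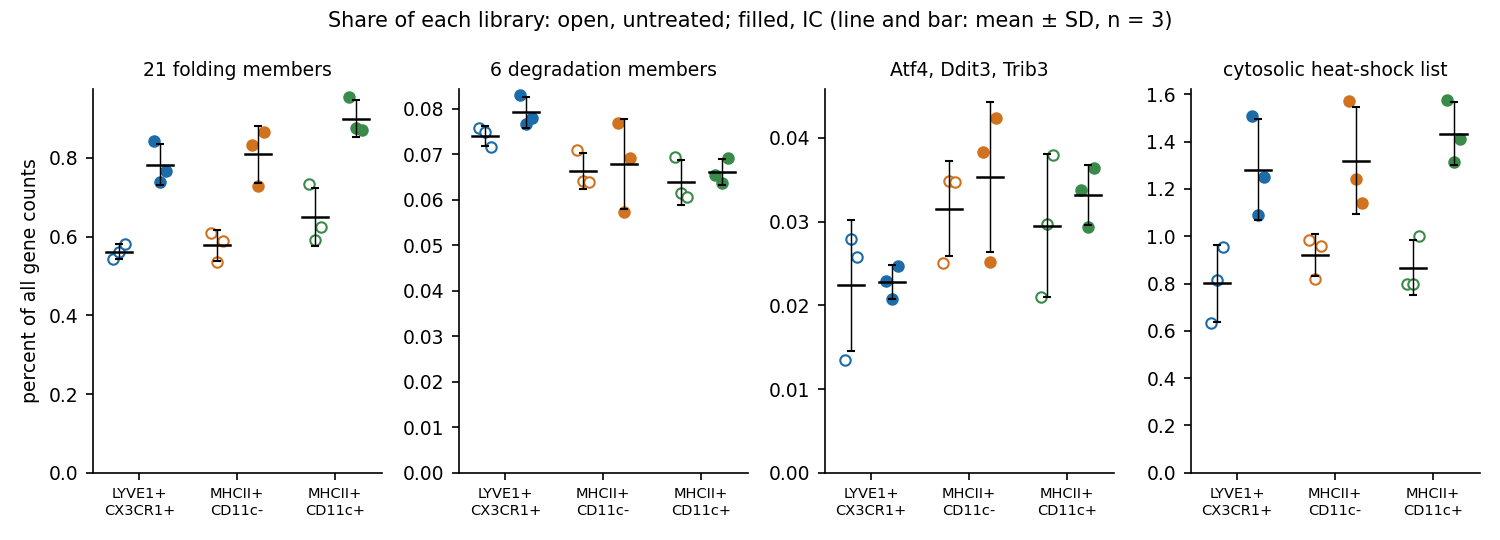
Share of all gene counts (percent, y axis) taken by the 21 folding genes, the 6 degradation genes, the Atf4-Ddit3 arm and 19 cytosolic heat shock genes in each library, by subset (x axis); open points are untreated and filled points IC libraries, with lines for means and bars for the SD (n = 3). The mean folding share was 0.562% in untreated and 0.783% in IC-treated LYVE1+CX3CR1+ macrophages, whereas that of the Atf4-Ddit3 arm was 0.0224% and 0.0228%. In MHCII+CD11c- macrophages the folding means were 0.578% and 0.809% and those of the arm 0.0315% and 0.0353%. In MHCII+CD11c+ macrophages they were 0.65% and 0.9%, and 0.0295% and 0.0332%.

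The 6 genes of ER-associated degradation, which carry misfolded proteins back to the cytosol for the proteasome, held 0 calls with IC in any comparison. The same 0 was found with DESeq2, which gave no adjusted p for 1 of the 6 in LYVE1+CX3CR1+ macrophages, and at an unadjusted p under 0.05 the count was 1 in LYVE1+CX3CR1+ macrophages and 0 in the others. Their share of counts was 0.0741 ± 0.00219% in untreated and 0.0793 ± 0.00336% in IC-treated LYVE1+CX3CR1+ macrophages. The gene behind that 1 was Herpud1, a membrane protein that assembles the degradation complex. Herpud1 levels were 135, 122 and 124 CPM untreated and 189, 162 and 174 CPM with IC in LYVE1+CX3CR1+ macrophages, a log2 fold change of 0.46 ± 0.17 (adjusted p = 0.324). The MHCII+CD11c- levels of Herpud1 were 133, 148 and 154 against 115, 97.9 and 149 CPM, where the groups overlapped and the log2 fold change was -0.22 ± 0.19.

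Averaged log2 fold changes of the other degradation genes were 0.12 ± 0.12 for Sel1l, the adaptor of the ligase Syvn1 (Hrd1), and 0.25 ± 0.18 for Syvn1 itself. They were -0.12 ± 0.096 for Edem1, which trims mannose from terminally misfolded glycoproteins, -0.027 ± 0.12 for Derl1 and 0.066 ± 0.24 for Derl2, both channel-related proteins of the ER membrane. The adjusted p of these 5 genes lay between 0.482 for Syvn1 and 0.946 for Derl1. The translocon subunits Sec61b and Sec61a1, through which new proteins enter the ER, averaged 0.55 ± 0.19 and 0.24 ± 0.11 (adjusted p = 0.0954 and 0.204). Both passed an unadjusted p under 0.05 in that comparison, and neither was called there by edgeR or DESeq2.

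The sensors and Xbp1 showed no called change with IC by edgeR or DESeq2, and 0 of the 4 passed an unadjusted p under 0.05 in any subset or on average. Xbp1, whose spliced form acts beside cleaved Atf6, was at 164, 159 and 186 CPM in untreated and 214, 179 and 186 CPM in IC-treated LYVE1+CX3CR1+ macrophages. It was at 163, 166 and 153 against 193, 177 and 148 CPM in MHCII+CD11c- and at 234, 185 and 141 against 167, 194 and 158 CPM in MHCII+CD11c+ macrophages. The groups overlapped in each subset, and the averaged log2 fold change was 0.055 ± 0.11 with a 95% interval of -0.16 to 0.27. That interval lies below the averaged values of Hspa5, Hyou1 and Pdia6. For Atf6, Ern1 and Eif2ak3 the averages were -0.10 ± 0.13, -0.065 ± 0.14 and -0.0094 ± 0.18, with intervals of -0.38 to 0.17, -0.36 to 0.23 and -0.37 to 0.36. Total transcript counts do not separate spliced from unspliced Xbp1, so its activity was not measured.

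The Atf4-Ddit3 arm held no call. None of its 3 genes passed with IC in any comparison by edgeR. DESeq2 called none either, but gave no adjusted p for 2 of the 3 in LYVE1+CX3CR1+ macrophages and for 1 in each other IC comparison. Of the 3, 0 passed an unadjusted p under 0.05. Atf4, the transcription factor translated under PERK and other kinases of the integrated stress response, was at 129, 233 and 229.9 CPM in untreated and 218, 198 and 219 CPM in IC-treated LYVE1+CX3CR1+ macrophages. Levels in MHCII+CD11c- cells were 235, 331 and 304 against 371, 222 and 383 CPM. Those of MHCII+CD11c+ cells were 201, 288 and 371 against 333, 288 and 331 CPM. The treatments overlapped in every subset, and untreated replicate 1 was the lowest of its group in each. The averaged log2 fold change of Atf4 was 0.14 ± 0.13 with a 95% interval of -0.13 to 0.42 (adjusted p = 0.621). Atf4 is regulated mainly in translation, which transcript counts do not show.

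Ddit3 (CHOP), the factor linked to death under prolonged ER stress, had few counts, between 1 and 52 per library. Its counts in LYVE1+CX3CR1+ macrophages were 16, 38 and 28 in untreated and 23, 13 and 49 in IC-treated libraries. They were 19, 18 and 44 against 3, 1 and 30 in MHCII+CD11c- and 30, 34 and 52 against 10, 17 and 32 in MHCII+CD11c+ macrophages. The averaged log2 fold change of Ddit3 was -0.45 ± 0.29 with a 95% interval of -1.05 to 0.16, so a rise as large as that of Hspa5 lay outside the interval and a fall of similar size lay inside it. Trib3, a pseudokinase induced by Ddit3, had 0, 12 and 9 counts in untreated and 2, 8 and 1 in IC-treated LYVE1+CX3CR1+ macrophages. It had 0, 3 and 0 against 1, 2 and 1 counts in MHCII+CD11c- and 3, 0 and 3 against 1, 0 and 13 in MHCII+CD11c+ macrophages, and with 14 of the 18 libraries at or under the floor of 3 counts no fold is given. The arm as a set took 0.0224 ± 0.00784% of counts in untreated and 0.0228 ± 0.00199% in IC-treated LYVE1+CX3CR1+ macrophages. Its share was 0.0315 ± 0.00564% against 0.0353 ± 0.00898% in MHCII+CD11c- and 0.0295 ± 0.0085% against 0.0332 ± 0.0036% in MHCII+CD11c+ macrophages. The treatments overlapped in each subset. Most of these counts were those of Atf4, so the share says little of Ddit3 and Trib3.

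Differences between subsets in the response were tested as interactions. Of the 36 members, 0 passed in any of the 3 pairs of subsets with edgeR, against 0%, 0.00948% and 0.00948% of all genes, and 0 with DESeq2, which gave no adjusted p for 8 members in the comparison of LYVE1+CX3CR1+ with MHCII+CD11c- and for 11 in that with MHCII+CD11c+ macrophages. At an unadjusted p under 0.05, 1 member of 36 passed in each pair, against 6.52%, 4.49% and 6.09% of all genes, which is no more than the share of all genes. These were Herpud1 and, in 2 pairs, Manf. The estimated response of Herpud1 was larger in LYVE1+CX3CR1+ than in MHCII+CD11c- macrophages with a log2 difference of 0.68 ± 0.25 (adjusted p = 0.683), and that of Manf was larger in LYVE1+CX3CR1+ than in MHCII+CD11c+ macrophages, the difference being 0.74 ± 0.31 (adjusted p = 1) while MHCII+CD11c+ minus MHCII+CD11c- gave -0.78 ± 0.33 (adjusted p = 0.773). For Hspa5, the response in LYVE1+CX3CR1+ macrophages differed from that in MHCII+CD11c- macrophages by 0.36 with a 95% interval of -0.079 to 0.81, and from that in MHCII+CD11c+ macrophages by 0.38 with an interval of -0.063 to 0.82. For Pdia6 the intervals were -0.76 to 0.20 and -0.51 to 0.42. At this depth and with 3 libraries a group, a difference of the Hspa5 response of up to 0.82 (log2) between LYVE1+CX3CR1+ and MHCII+CD11c+ macrophages lay inside the interval.

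Markers of other cells differed between treatments in the same libraries. The summed level of 7 neutrophil markers was 12.5 to 13.5 CPM in untreated and 19.2 to 132 CPM in IC-treated LYVE1+CX3CR1+ macrophages, where Mpo and Elane were at 0 in every library. It was 509 to 1315 against 1268 to 3124 CPM in MHCII+CD11c- and 18.4 to 573 against 839 to 1844 CPM in MHCII+CD11c+ macrophages. S100a9, the most abundant of them over all libraries, was at 0 to 2.15 CPM in untreated LYVE1+CX3CR1+ macrophages and rose on average by 3.02 ± 0.62 (log2; adjusted p = 0.00344). Among 5 monocyte genes, Plac8 rose in MHCII+CD11c- macrophages (2.42 ± 0.57; adjusted p = 0.0355) and Plac8 and Hp in MHCII+CD11c+ macrophages (2.48 ± 0.57 and 3.42 ± 0.51; adjusted p = 0.0379 and 0.000999). The list summed to 792 to 841 CPM untreated and 758 to 847 CPM with IC in the latter, a sum that hides opposite moves. Most of it was Ccr2, with a mean of 776 CPM untreated and 562 CPM with IC. On average Ly6c2, Plac8, Hp and Chil3 were called higher, by 2.52 (Ly6c2) to 3.46 (Chil3) log2. In LYVE1+CX3CR1+ macrophages Ly6c2, Chil3 and Hp were at 0 untreated, and all 5 genes held counts with IC. The list summed there to 23.2 to 32.3 CPM untreated and 21.4 to 47.4 CPM with IC. The 5 markers of LYVE1+CX3CR1+ macrophages summed to 803 to 897 CPM in untreated and 1422 to 1783 CPM in IC-treated MHCII+CD11c+ macrophages, where Lyve1 (1.54 ± 0.28; adjusted p = 0.00881), Vsig4 (1.17 ± 0.24; adjusted p = 0.0145) and Cx3cr1 (0.85 ± 0.20; adjusted p = 0.0471) rose. All 4 erythroid genes fell on average, by 3.43 (Hba-a1) to 4.54 (Alas2) on the log2 scale. In MHCII+CD11c- macrophages, the 4 MHCII genes summed to 19105 to 20175 CPM untreated and 6789 to 13312 CPM with IC, and Itgax to 2.33 to 13.3 against 31.0 to 70.6 CPM. Plasma cells are rich in folding genes. Of 9 plasma and B cell genes listed, 7 were in the data. Jchain was at 0 in all groups, whereas 6 of the 7 held counts in untreated MHCII+CD11c- and in both MHCII+CD11c+ groups. The 7 genes summed to 198 to 293 CPM in untreated and 201 to 294 CPM in IC-treated MHCII+CD11c- macrophages. Their sum was 108 to 162 against 80.2 to 115 CPM in MHCII+CD11c+ and at most 4.39 CPM in LYVE1+CX3CR1+ macrophages. Among them, Sdc1 fell on average (-1.60 ± 0.41 log2; adjusted p = 0.0179). The part of neutrophil, monocyte and erythroid RNA and of the makeup of the sorts in the chaperone values was not tested. Without IC replicate 2 of MHCII+CD11c- macrophages, 6, 6 and 4 members were called higher in the LYVE1+CX3CR1+, MHCII+CD11c- and MHCII+CD11c+ macrophages and 12 on average. Without the pair of libraries that stood apart, the counts of members called higher became 4 in LYVE1+CX3CR1+, 6 in MHCII+CD11c-, 4 in MHCII+CD11c+ macrophages and 11 on average. The shares of all genes called in these fits are not given.

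Cytosolic heat shock chaperones, which answer a different stress pathway under Hsf1, held calls beside the ER genes. Of 19 such genes, 9 were called higher on average (against 3.12% of all genes) and 0 lower (against 3.09%). Hspa8 was called in LYVE1+CX3CR1+ macrophages at 0.72 ± 0.15 (adjusted p = 0.0174) and Hsp90ab1 in MHCII+CD11c+ macrophages at 0.68 ± 0.15 (adjusted p = 0.028). The inducible Hspa1a and Hspa1b averaged 0.73 ± 0.15 and 0.82 ± 0.15 (adjusted p = 0.00345 and 0.00169). These paralogs are nearly identical, so their split is uncertain. The other genes called were Hsp90aa1 (0.49 ± 0.097), Dnaja1 (0.39 ± 0.11), Hsph1 (0.76 ± 0.16), Stip1 (0.73 ± 0.19) and Ahsa1 (0.69 ± 0.15), all cofactors or members of the Hsp70 and Hsp90 machinery. Hsf1 itself averaged 0.054 ± 0.23 and Chordc1 -0.025 ± 0.20, neither of them called. The share of counts of these 19 genes was 0.801 ± 0.162% against 1.28 ± 0.211% in LYVE1+CX3CR1+ macrophages.

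Beyond the 36 genes, 146 other genes of the same pathways were listed, of which 133 were tested. With IC, 0 of 133 were called in LYVE1+CX3CR1+ macrophages, 2 in MHCII+CD11c-, 1 in MHCII+CD11c+ and 6 on average, none of them lower. The shares of all genes called higher were 0.246%, 0.55%, 0.483% and 3.12% in the same order. In LYVE1+CX3CR1+ macrophages 12 of the 133 passed an unadjusted p under 0.05 (against 8.71% of all genes). There DESeq2 called 1, Mcfd2, and gave no adjusted p for 23. The median averaged log2 fold change of the 133 genes was 0.12. Of 30 further folding genes, Mcfd2, a cargo receptor subunit, was called on average at 0.59 ± 0.13 (adjusted p = 0.0066), and Tmx3, a membrane disulfide isomerase, in MHCII+CD11c- macrophages at 0.96 ± 0.23 (adjusted p = 0.0355). Of 28 translocation and glycosylation genes, Rpn1, a subunit of the oligosaccharyl transferase, was called on average at 0.58 ± 0.10 (adjusted p = 0.000965) and Spcs1, a signal peptidase subunit, at 0.55 ± 0.16 (adjusted p = 0.0313). Neither the 21 further degradation genes nor the 21 further sensors and regulators held a call on average by edgeR. At an unadjusted p under 0.05 there were 3 and 7 of them (against 19% of all genes), and DESeq2 called 0 and 1 (Bax). In these lists Ufd1l (0.55 ± 0.19) and Ube2g2 (0.38 ± 0.15), and Bax (0.49 ± 0.16) and Atf6b (0.45 ± 0.17), had the highest averages, and Faf2 (-0.28 ± 0.17), March6 (-0.23 ± 0.11), Creb3l1 (-0.70 ± 0.62) and Mbtps2 (-0.64 ± 0.27) the lowest.

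Of 33 known PERK and Atf4 targets, 3 were called higher on average (against 3.12% of all genes) and 0 lower (against 3.09%), while Atf4, Ddit3 and Trib3 held no call. They were Nupr1, a small stress-response chromatin protein, at 0.90 ± 0.17 (adjusted p = 0.00135), Eprs, a tRNA synthetase, at 0.56 ± 0.14 (adjusted p = 0.0175), and Slc3a2, the heavy chain of amino acid transporters, at 0.44 ± 0.11 (adjusted p = 0.0121). Nupr1 was also called in MHCII+CD11c+ macrophages at 1.52 ± 0.30 (adjusted p = 0.014). The lowest averages were those of Pck2 at -0.63 ± 0.23 and Cars at -0.38 ± 0.25. The median of the 33 genes was 0.18, against 0.47 for the 21 folding genes.

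The promoter elements shown above were not confined to genes that rose. Of the 12 folding genes called on average, 10 had a promoter in the table and 5 of these held ERSE or ERSE-II, namely Hspa5, Hsp90b1, Dnajb11, Calr and Pdia6. Of the 9 folding genes not called, 8 had a promoter and 3 held an element, namely Dnajc3, Creld2 and Canx. Of the 15 other members, 12 had a promoter and 2 held an element, Herpud1 and Syvn1. A match describes letters in this window and not a bound site.

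Without treatment, LYVE1+CX3CR1+ macrophages held less of several chaperones than MHCII+CD11c+ macrophages. In that comparison 1 member of 36 was called higher (against 9.48% of all genes) and 9 lower (against 12.4%). The 3 untreated comparisons share their groups, so each set of values is given by itself. Lower in LYVE1+CX3CR1+ macrophages were Creld2 (-1.28 ± 0.37), Sdf2l1 (-1.17 ± 0.25), Sec61b (-1.14 ± 0.32), Ero1l (-1.03 ± 0.31), Atf6 (-1.01 ± 0.22), Uggt1 (-0.92 ± 0.17), Hyou1 (-0.85 ± 0.17), Pdia6 (-0.59 ± 0.16) and Hspa5 (-0.55 ± 0.15), all log2. Adjusted p ranged from 0.00019 for Uggt1 to 0.0168 for Ero1l. Uggt1 was at 181, 196 and 218 CPM in LYVE1+CX3CR1+ and 378, 396 and 350.1 CPM in MHCII+CD11c+ macrophages. Atf6 was at 66.04, 85.3 and 67.3 against 121, 159 and 159 CPM. The groups did not overlap for any of these 9 genes. That adds nothing to the calls, since the genes were picked as called between the same libraries. The share of all genes without overlap was not counted for this comparison.

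The calls of Uggt1, Hyou1, Sdf2l1 and Atf6 held without any 1 of the 18 libraries. That of Hspa5 was lost without untreated replicate 1 of MHCII+CD11c+ or replicate 1 or 2 of LYVE1+CX3CR1+ macrophages, at adjusted p = 0.0583, 0.0504 and 0.0701. That of Pdia6 was lost without replicate 1 of MHCII+CD11c+ or replicate 3 of LYVE1+CX3CR1+ macrophages, at 0.0932 and 0.0594. Creld2 lost it without replicate 1 of MHCII+CD11c+ or replicate 2 of LYVE1+CX3CR1+ macrophages, at 0.0696 and 0.0782. Ero1l lost it without replicate 1 of MHCII+CD11c+ or replicate 1 or 3 of LYVE1+CX3CR1+ macrophages, at 0.166, 0.086 and 0.0871, and without the pair of libraries that stood apart at 0.0685. Sec61b lost it without replicate 3 of MHCII+CD11c+ or replicate 2 or 3 of LYVE1+CX3CR1+ macrophages, at 0.0504, 0.0601 and 0.0734.

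Dnajc10 ran the other way and was highest in LYVE1+CX3CR1+ macrophages. It was at 109.8, 115 and 123 CPM there, 66.3, 59.9 and 95.01 CPM in MHCII+CD11c- and 59.4, 57.9 and 43.4 CPM in MHCII+CD11c+ macrophages without treatment. The LYVE1+CX3CR1+ libraries lay above those of each of the other subsets. The log2 fold change was 1.12 ± 0.20 against MHCII+CD11c+ macrophages (adjusted p = 0.0001) and 0.65 ± 0.20 against MHCII+CD11c- macrophages (adjusted p = 0.0338). With IC it was 129, 128 and 149.8 CPM in LYVE1+CX3CR1+, 109.8, 113 and 130.2 CPM in MHCII+CD11c- and 74.04, 69.2 and 84.1 CPM in MHCII+CD11c+ macrophages, so the order of the means was kept.

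Against MHCII+CD11c- macrophages, 1 member was called higher in LYVE1+CX3CR1+ macrophages (against 4.32% of all genes) and 1 lower (against 7.12%), which is no more than the share of all genes. The lower one was Atf6, at 66.04, 85.3 and 67.3 against 89.5, 144 and 129.7 CPM, a log2 fold change of -0.73 ± 0.23 (adjusted p = 0.0351). The Atf6 call was lost without untreated replicate 1 or 3 of LYVE1+CX3CR1+ or 2 or 3 of MHCII+CD11c- macrophages, at adjusted p = 0.143, 0.131, 0.162 and 0.115, and without the pair that stood apart at 0.0931. The Dnajc10 call was lost without replicate 1, 2 or 3 of LYVE1+CX3CR1+ or 1 or 2 of MHCII+CD11c- macrophages, at 0.0647, 0.0776, 0.116, 0.13 and 0.154.

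In untreated MHCII+CD11c+ macrophages set against the MHCII+CD11c- subset, 0 members passed edgeR's test in either direction (against 1.89% of all genes higher and 1.6% lower), 8 passed an unadjusted p under 0.05 (against 16.1% of all genes), and DESeq2 called 3, namely Hyou1, Uggt1 and Pdia6. The edgeR log2 fold changes of these were 0.58 ± 0.17, 0.58 ± 0.17 and 0.57 ± 0.16 (adjusted p = 0.0611, 0.0565 and 0.0517). Atf4 was at 129, 233 and 229.9 CPM in LYVE1+CX3CR1+ macrophages and higher in most libraries of the other subsets, at 235, 331 and 304 and 201, 288 and 371 CPM. Its log2 fold changes of -0.55 ± 0.23 and -0.54 ± 0.23 for LYVE1+CX3CR1+ against MHCII+CD11c- and MHCII+CD11c+ macrophages did not pass (adjusted p = 0.132 and 0.0965), though without untreated replicate 1 of MHCII+CD11c+ macrophages (adjusted p = 0.0239) or with 1 surrogate variable (adjusted p = 0.0472) the latter was called. In each set of same-numbered libraries, that of LYVE1+CX3CR1+ macrophages had the lowest Atf4 level.

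**Figure D5:**
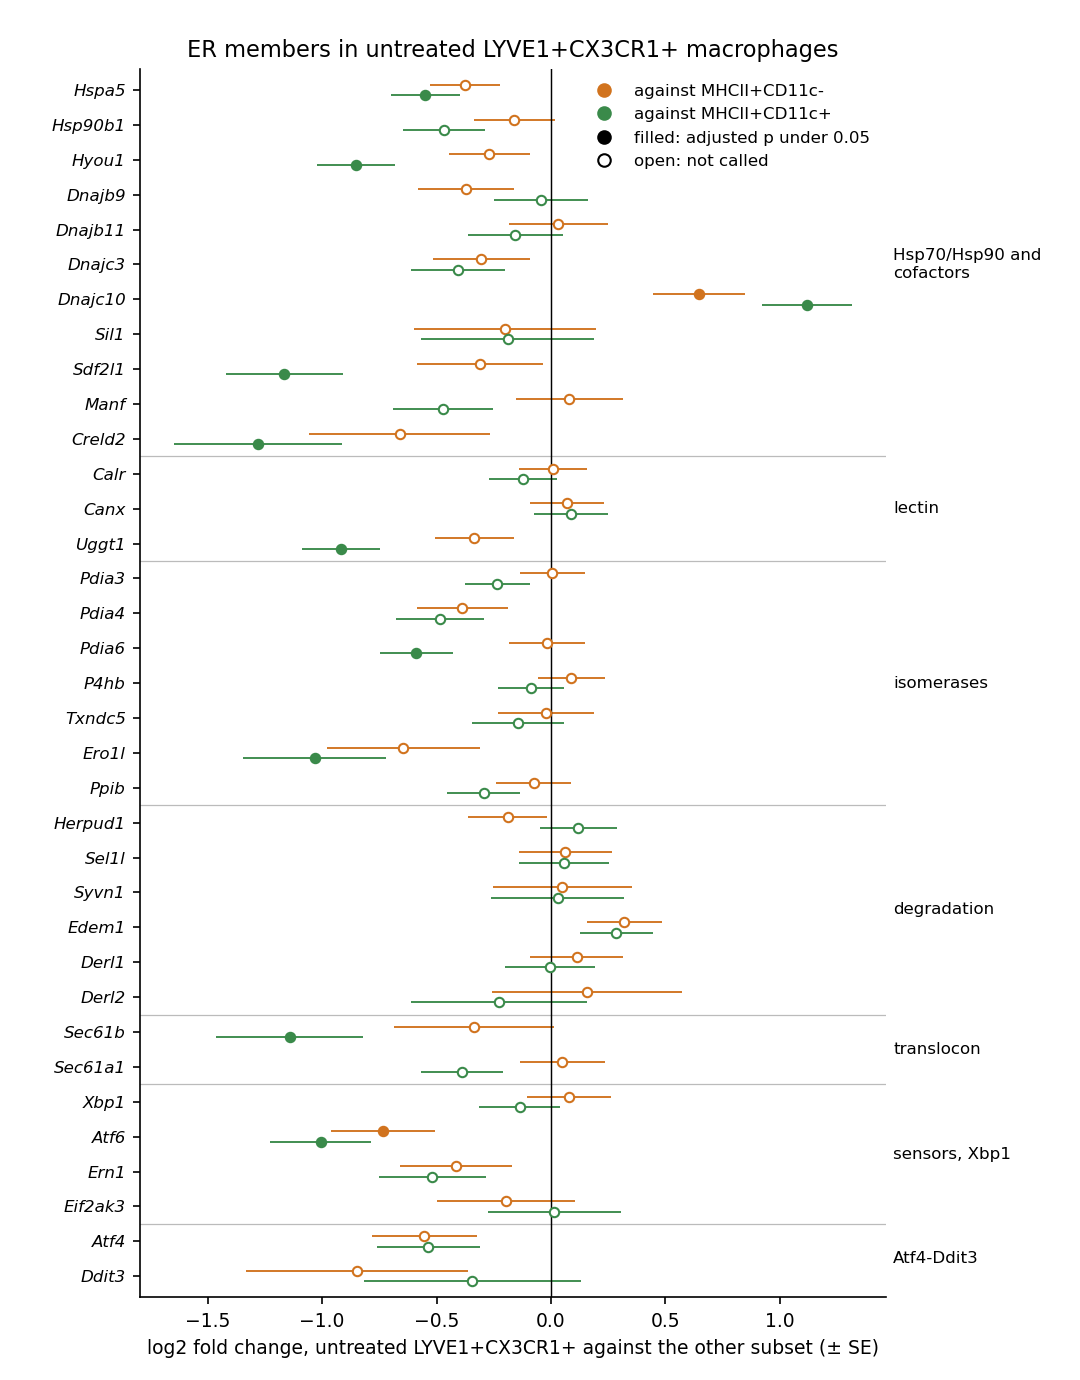
Log2 fold change of untreated LYVE1+CX3CR1+ macrophages against each of the other untreated subsets (x axis; points with SE as bars, colours for the subsets) for the members by role; Trib3 is left out. Filled points passed an adjusted p of 0.05, namely 10 genes against MHCII+CD11c+ and 2 against MHCII+CD11c- macrophages, with Dnajc10 the called gene that lies right of 0.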

How the data were processed

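Bulk RNA-seq of sorted synovial macrophages was measured in 18 libraries, 3 in each of 6 groups defined by subset and treatment. Per the labels and the methods of the study, the authors made total RNA libraries with a strand-aware kit for low input, trimmed reads with Trim Galore, checked them with FastQC, aligned them with HISAT2 to mm10 and deposited whole-number counts per gene from featureCounts. Tool versions, the annotation, the strand setting and the handling of reads with several matches are not given in the sources used here. The counts were used as deposited.

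Genes with low counts were removed with edgeR's filter (minimum count 10, minimum total 15), which left 10550 of 24421 genes, and libraries were scaled by TMM. The main test was edgeR 4.0.16's quasi-likelihood test in R 4.3.3 on all 18 libraries with the 6 groups as the design, p-values being adjusted by Benjamini and Hochberg over all genes tested, with a threshold of 0.05. The steps were first tested on simulated data with known changes. Alternatives used DESeq2 1.42.0, whose Wald test the study applied, sva 3.50.0 and limma 3.58.1. Each library pools 3 mice, so p-values measure the spread between pools. The labels do not say whether same-numbered libraries share mice, and the numbers were not used as pairs in the main test. Of 18 same-numbered pairs within a treatment, 1 correlated above 0.1 and 17 above 0, against 11 of 36 other pairs above 0. Sharing of mice therefore remains possible, and fits with the numbers as blocks are given below. No library was a repeat of another (smallest chi-square per gene between replicates 3.423). One count was worth 0.480 to 3.77 CPM, so low genes such as Ddit3 and Trib3 are the least precise. Levels per kilobase used the exon union of GENCODE release 21 for mouse, and promoters came from RefSeq. Genes named beside the 36 members were those of each pathway list called with IC or, in lists without a call, those with the highest and lowest averages, and for marker lists the most abundant gene. The members and lists were chosen with earlier results of these data known. Features of the member proteins were not analysed here.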

Additional observations from a re-analysis of the deposited data

How the results depend on the processing

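Each count of members called was recomputed under up to 10 other settings, and no single-gene call reversed its direction under any of them. Except where same-numbered libraries were averaged, the share of all genes called under another setting is not given. A change in these counts can therefore go with a change over all genes. Of the members called higher with IC, the main counts were 3 (LYVE1+CX3CR1+), 3 (MHCII+CD11c-), 2 (MHCII+CD11c+) and 12 (averaged). In the same order they became 9, 7, 4 and 12 with DESeq2, 6, 3, 3 and 12 without a filter on low counts, 6, 6, 4 and 12 with 1 surrogate variable and 7, 1, 4 and 11 without the 2 smallest libraries, where the single IC library kept in MHCII+CD11c- macrophages is assumed to vary like the other groups. Fitted to the libraries compared alone, the subset counts were 11, 0 and 4, the 0 in MHCII+CD11c- macrophages coming from a fit with 6 libraries, 2 of them the smallest of the series, and its cause was not tested. Leaving out 1 library at a time gave 1 to 6, 1 to 6, 0 to 4 and 12 to 12. Another 2 settings, chosen after the data were seen, left out the pair of libraries that stood apart (4, 6, 4 and 11) or averaged same-numbered libraries of a treatment (7 on average).

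For untreated subsets, LYVE1+CX3CR1+ against MHCII+CD11c+ macrophages gave 10 calls, and 7 to 12 with 1 library left out. Against MHCII+CD11c- macrophages the 2 calls became 1 without a filter, in the fit to the libraries compared alone and without the pair that stood apart, and 0 to 2 with 1 library left out. Between both MHCII+ subsets the 0 became 3 with DESeq2, 1 without a filter, 4 when every library had to hold 10 counts of a gene, 1 in the fit to the libraries compared alone, 4 with 1 surrogate variable, 4 without the 2 smallest libraries, 4 without the pair that stood apart and 0 to 4 with 1 library left out. The cause of these changes was not tested. Interactions held 0 calls in every setting.

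With the replicate number as a block, the IC counts were 4, 3, 3 and 12 and the untreated counts 12, 2 and 3 (LYVE1+CX3CR1+ against MHCII+CD11c+, against MHCII+CD11c-, and between the MHCII+ subsets). With treatment and number together as a block, the untreated counts were 13, 3 and 2. Atf4 was then called lower in LYVE1+CX3CR1+ than in both other subsets (adjusted p = 0.0178 and 0.0151). Deviations from group means correlated weakly within a treatment, at -0.046 to 0.13 for same-numbered libraries (median 0.036, 17 of 18 above 0) against a median of -0.025 for others, and 17 of 18 libraries correlated best with their own number. This is a hint from the data, since the labels do not say what a number marks. No member was called lower with IC in any setting, and the folding median stayed within 0.47 to 0.61, 0.34 to 0.56, 0.28 to 0.48 and 0.39 to 0.51 in the 3 subsets and on average. Few counts limit the precision for Ddit3 and Trib3, and 2 of the 3 IC libraries of MHCII+CD11c- macrophages held 245903 and 381217 counts in all.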
